A study of Homo sapiens with 6 samples.

Results

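The regions described here carried a reproducible MYT1L peak, also overlapped a peak of a negative-control IgG library, and lay away from the ends of protein-coding genes. Peaks of 4 MYT1L libraries on chromosomes 1 to 22, X and Y were merged where they shared at least 1 bp, which gave 49028 regions. Of these, 12299 (25.1%) were found by 3 or all 4 of the MYT1L lists and are called reproducible, and 1208 of those (9.82%) overlapped an IgG peak by at least 1 bp. Among the 5199 reproducible regions whose edges were over 1000 bp from every end of a protein-coding gene, 831 (16.0%) overlapped an IgG peak, and these 831 are the subject. Among the 7100 reproducible regions at gene ends, 377 (5.31%) did. The 831 therefore made up 68.8% of the IgG-overlapping regions (95% Wilson interval 66.1 to 71.3%, counting error only). With IgG replicate 1 left out, 533 members and 280 gene-end regions overlapped an IgG peak. With IgG replicate 2 left out, 673 and 114 did. Presence of MYT1L and IgG peaks chose the members, so that presence is given as a description and not as a result.

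MYT1L is a zinc-finger transcription factor of neurons. The libraries were made by CUT&RUN, in which an antibody brings a nuclease to its target on chromatin and the released DNA is sequenced; an IgG antibody has no chromatin target, so its peaks mark DNA that is recovered without one. The 4 MYT1L and 2 IgG libraries all came from wild-type cells of H1, a single human embryonic stem cell line, at day 30, with no treatment named. The design text speaks of interneurons of the cortex made from these stem cells, while the sample label for cell type names the stem cells themselves, and peak lists hold no expression values with which to check either. Nothing says that replicates came from separate cultures, so spread and p-values measure only the differences between these libraries. Numbers inside the MYT1L peak names are each 1 higher than in the titles, and the titles were followed.

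Regions that recur in control libraries are often repeated DNA. Satellite arrays near centromeres, the tandem copies of the ribosomal RNA genes, the macrosatellite array that holds DUX4 copies, and nuclear copies of mitochondrial DNA all exist many times per cell, and an assembly may hold fewer copies than the cell does. Reads from all copies then stack on those present in the assembly. How reads that match several places were mapped, and whether duplicate fragments were removed, is not given in the sources used here.

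Sequence was at hand for the promoter windows and microRNA hairpins of RefSeq (GRCh38.p14) that members overlapped. The windows span 250 bases before to 50 after an annotated start of a gene, which can be an alternative one. The MACF1 window lies inside its gene, which begins at 39084167. The 3 windows below show 2 CpG-rich starts of genes that had weak IgG peaks and the start of a noncoding gene that had strong ones, and the hairpin shows sequence of the ribosomal DNA arrays. All are printed 5′ to 3′ on the gene's strand, with the CG dinucleotides in capitals.
MIR17HG, chr13:91347437-91347736, plus strand: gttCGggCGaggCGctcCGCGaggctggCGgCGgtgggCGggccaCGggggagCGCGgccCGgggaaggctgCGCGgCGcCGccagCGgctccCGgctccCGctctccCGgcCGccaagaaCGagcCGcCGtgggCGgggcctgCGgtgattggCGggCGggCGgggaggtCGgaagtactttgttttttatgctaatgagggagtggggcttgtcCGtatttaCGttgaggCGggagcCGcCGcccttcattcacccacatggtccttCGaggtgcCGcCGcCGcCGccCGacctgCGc
MACF1, chr1:39408823-39409122, plus strand: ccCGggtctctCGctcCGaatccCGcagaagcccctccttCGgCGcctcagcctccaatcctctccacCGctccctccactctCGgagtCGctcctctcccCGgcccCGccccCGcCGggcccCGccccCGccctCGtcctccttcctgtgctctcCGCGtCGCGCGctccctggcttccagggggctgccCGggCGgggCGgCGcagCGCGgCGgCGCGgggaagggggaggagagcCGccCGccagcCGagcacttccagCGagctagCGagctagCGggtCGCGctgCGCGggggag
LOC105373480, chr2:740636-740935, plus strand: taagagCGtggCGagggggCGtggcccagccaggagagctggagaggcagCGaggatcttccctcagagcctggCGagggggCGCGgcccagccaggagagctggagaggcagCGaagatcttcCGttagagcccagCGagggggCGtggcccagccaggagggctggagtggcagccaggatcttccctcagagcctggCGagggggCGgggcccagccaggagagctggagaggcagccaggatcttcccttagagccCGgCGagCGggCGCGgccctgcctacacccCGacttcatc
MIR6724-4, chr21:8432530-8432621, plus strand: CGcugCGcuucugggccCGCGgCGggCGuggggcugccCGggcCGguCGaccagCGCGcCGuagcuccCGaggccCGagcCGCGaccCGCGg

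The MIR17HG window held 42 CG dinucleotides, MACF1 40 and LOC105373480 19 in 300 bases. The MIR6724-4 hairpin held 18 in 92 bases. Its sequence was identical to that of MIR6724-2 at chr21:8249505-8249596, so reads from one copy cannot be assigned by this stretch alone. Both hairpins overlapped a member.

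The number of members differed between chromosomes, whose lengths were not taken into account. Chromosome 1 held 152, chromosome 10 held 80, chromosome Y 61, chromosome 4 60, chromosome 21 53 and chromosome 17 49. Chromosome X and chromosome 11 held 8 each and chromosome 14 held 7. Chromosome Y thus held 7.34% of members, against 1.49% of the 4368 reproducible regions away from gene ends without an IgG peak (IgG-free regions below). For the other chromosomes no such share was counted. On each chromosome the longest stretch free of protein-coding genes was marked, whatever noncoding genes or pseudogenes it held. Together these stretches held 374 members (45%) and 9.87% of IgG-free regions.

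**Figure D1:**
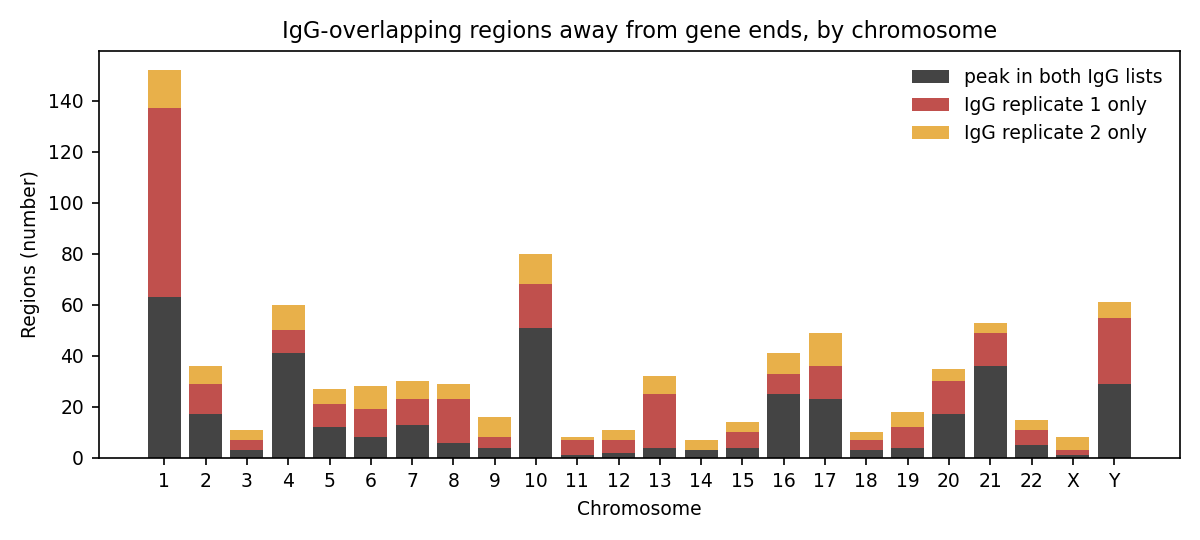
Number of IgG-overlapping reproducible regions away from gene ends (vertical axis) on each chromosome (horizontal axis), stacked by whether the region had a peak in both IgG lists, in IgG replicate 1 only or in IgG replicate 2 only. Chromosome 1 holds the most, 152 of 831, and X, 11 and 14 hold 7 or 8 each.

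Protein-coding genes were far from most members. A total of 525 (63.2%) lay over 100 kb from a protein-coding gene end and 274 (33.0%) over 1 Mb, whereas 27.4% of IgG-free regions lay over 100 kb away. Inside a protein-coding gene lay 141 members (17.0%) and 46.2% of IgG-free regions. A noncoding gene or pseudogene was touched by 151 (18.2%), against 26.5% of IgG-free regions, and 563 (67.7%) touched no gene of the table. Ribosomal RNA genes were touched by 11 members and by 4 of the 4368 IgG-free regions. Among the other kinds, 60 members touched a long noncoding RNA gene, 50 a pseudogene, 28 a transcribed pseudogene and 6 a microRNA gene; none of the 831 touched a tRNA or snoRNA gene. Regions of 1 array are not independent, and these shares were not tested.

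Members lay close to each other. Another member was found within 100 kb of 544 (65.5%), and another IgG-free region within 100 kb of 47.4% of the IgG-free regions, although those were more numerous. Chaining neighbours at most 100 kb apart gave 95 clusters of 2 or more members, and 32 clusters of at least 5 held 392 members. The largest, 64 members at chromosome 1 from 123416231 to 124778337, lay within a stretch free of protein-coding genes, 1953 kb from the nearest protein-coding gene end. A second cluster, of 25, lay at chromosome 1 from 122524468 to 123231018, with a median gap of 23707 bp between neighbours. Equally many, 25, lay at chromosome 1 from 143184640 to 143264808 with a median gap of 2282 bp.

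The signal was read as a pileup, the number of fragments stacked at a peak's summit, which was solved from the deposited values of each peak. Excess is that pileup divided by the genome-wide background of the same library, so that libraries of different background can be set side by side. The genome-wide background was 1.18, 0.421, 1.05 and 0.895 fragments in MYT1L replicates 1 to 4, and 0.329 and 0.190 in IgG replicates 1 and 2. In the IgG libraries, with their low background, a peak therefore needed a high excess. The lowest excess of a member with a peak was 15.2 in IgG replicate 1 and 21.02 in IgG replicate 2, against 5.91 in MYT1L replicate 1.

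The deposited fold compares a summit with its local background, and local background is given as a multiple of the genome-wide one. Of the 831 members, 825, 706, 799 and 822 held a peak in MYT1L replicates 1 to 4, and 673 and 533 in IgG replicates 1 and 2. These numbers equal 2.95, 5.74, 4.21 and 2.73% of the peaks of the MYT1L lists, but 69.0 and 53.4% of those of the IgG lists. All 4 MYT1L lists held 659 of the members. Of the 172 with 3 lists, 125 lacked a peak in MYT1L replicate 2, which had the lowest genome-wide background of the 4.

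Median excess of the members was 74.3, 89.1, 68.5 and 63.7 in MYT1L replicates 1 to 4 and 91.1 and 120.9 in IgG replicates 1 and 2. Each median is over the members with a peak in that list, so the 6 medians cover different regions. Median excess of the IgG-overlapping regions at gene ends was 15.2, 26.1, 15.2, 42.5, 21.3 and 36.8 in the same order, below that of the members in every library. IgG-free regions had a median of 13.5, 23.7, 13.3 and 19.0 in the MYT1L libraries, also below. The median local background of members was 6.03, 6.07, 6.01 and 4.97 times the genome-wide one in the MYT1L libraries and 7.32 and 7.47 times in the IgG libraries. At gene ends it was 1.59, 1.78, 1.52, 3.14, 1.42 and 1.89 times. A local background above 10 times the genome-wide one surrounded between 33.7 and 43.3% of members per library.

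**Figure D2:**
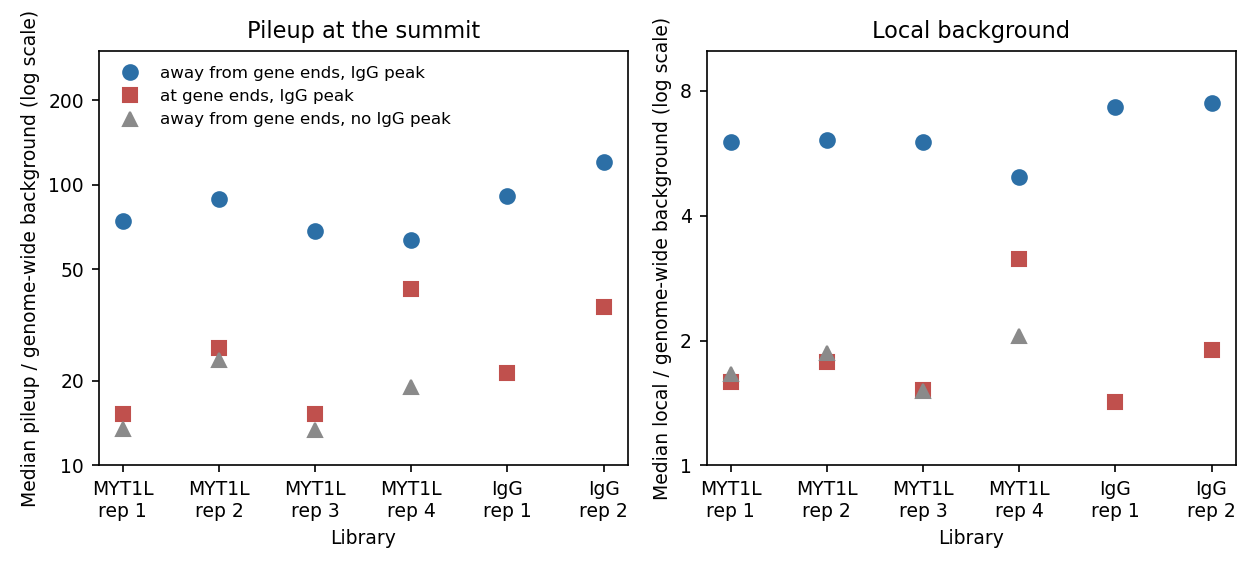
Median pileup at the summit (left) and median local background (right), each divided by the genome-wide background of the library and drawn on a log axis, for the 6 libraries (horizontal axis). Points are medians over the regions with a peak in that list; members (circles) lie above the gene-end set (squares) in every library, most narrowly in MYT1L replicate 4.

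Members were compared with the 377 IgG-overlapping regions at gene ends within each of the 6 libraries, 4 MYT1L and 2 IgG, by the exact sign-flip permutation test over libraries (two-sided, smallest possible p 0.03125, Benjamini-Hochberg adjustment over 3 measures). Local background was higher for members by 1.78 ± 0.583 on the log2 scale (SD, n = 6), in 6 of 6 libraries (exact permutation p = 0.03125, adjusted p = 0.09375), so the adjusted value missed 0.05. The median percentile of the deposited fold within its own list was higher by 10.5 ± 11.9 points, in 5 of 6 libraries (exact permutation p = 0.13, adjusted p = 0.1875). MYT1L replicate 4 went the other way, at -10.7 points. The difference was 5.33 points over the 4 MYT1L libraries alone (exact permutation p = 0.5) and 5.19 points over the 6 libraries among peaks whose −log10 q reached 5. Ranking by the deposited −log10 q in place of fold gave 24.2 points in the 6 libraries (exact permutation p = 0.03125), which passed 0.05 after adjustment. Peak width differed by -47.1 ± 165 bp, higher in 3 of 6 (exact permutation p = 0.8125, adjusted p = 0.8125), and turned to 10.4 bp without MYT1L replicate 4. Whether the differences themselves differed between the MYT1L and IgG libraries could not be shown at 0.05 with this design, whose 15 splits allow a smallest p of 0.0667. The exact permutation p, two-sided, was 0.4 for local background, 0.2 for fold percentile (mean difference 5.33 points in the MYT1L and 20.9 in the IgG libraries) and 0.333 for width.

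The strongest members by mean percentile of fold over the MYT1L libraries lay mostly on chromosome 17. The highest, at chromosome 22 from 18730438 to 18730752, reached 43.1, 43.4, 41.2 and 46.5 in MYT1L replicates 1 to 4 and 34.6 and 35.5 in the IgG libraries on the deposited fold. Its excess was 872, 957, 496 and 935 in the MYT1L libraries and 550 and 941 in the IgG libraries, so the groups overlapped. Next came chromosome 17 from 25920036 to 25920411 (mean fold 40.6 ± 4.21, SD, n = 4), from 25383622 to 25383971 (38.9 ± 4.68) and from 25569075 to 25569423 (38.3 ± 3.24). All 3 lay over 1 Mb from WSB1, the nearest protein-coding gene. These 10 strongest members were picked among those with a peak in all 4 MYT1L lists. All had peaks in both IgG lists, and none touched a gene of the table.

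Ranked by mean percentile of fold over the 2 IgG libraries, the top 10 added 2 members. The first lay at chromosome 13 from 18211701 to 18212551 in the noncoding gene FAM230C. The other lay at chromosome 3 from 75668864 to 75669641 in DUX4L26, a DUX4 pseudogene. At DUX4L26 the pileup was 1499, 717, 1181 and 1185 fragments in MYT1L replicates 1 to 4 and 306 and 238 in the IgG libraries. The raw pileups of the groups do not overlap, but the MYT1L libraries had the higher genome-wide background. Excess there was 1266, 1703, 1124 and 1325 in the MYT1L libraries and 929 and 1251 in the IgG libraries, so on that scale the groups overlapped.

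The ribosomal DNA arrays of chromosome 21 showed very high pileup and low fold at the same sites. The genes RNA45SN1, RNA45SN2 and RNA45SN3 encode the 45S precursor of the 18S, 5.8S and 28S ribosomal RNAs. They held 10 members, 5 in RNA45SN1 (8433222 to 8446572), 3 in RNA45SN2 (8205988 to 8219302) and 2 in RNA45SN3 (8389035 to 8402343). Over the 11 members that touched a ribosomal RNA gene, median excess was 494, 623, 345 and 444 in MYT1L replicates 1 to 4 and 237 and 334 in the IgG libraries. Their median deposited fold was only 3.3 to 4.0 over the 6 libraries, because the local background was high too. The 11 include a member outside these arrays, at chromosome 1 from 182985 to 184100. Its excess was only 20.3, 19.0 and 19.0 in MYT1L replicates 1, 3 and 4, with no peak in MYT1L replicate 2.

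Some positions recurred from copy to copy and others did not. Relative to the lower end of each gene, a member began at -1086 bp in RNA45SN2, -1090 bp in RNA45SN3 and -1073 bp in RNA45SN1. Another began at 6310, 6275 and 6595 bp, over the 5.8S gene. The last, over the 28S gene, began at 12369 bp in RNA45SN2 and 12409 bp in RNA45SN1, and RNA45SN3 had none there. A member that began at 8981 bp was found in RNA45SN1 only, and the stretch from 1766 to 2445 bp was a separate member there but part of the first member in the other copies. The member over the start of RNA45SN2 (8204902 to 8209013) had pileups of 859, 288, 557 and 599 fragments in the MYT1L libraries and 117 and 107 in the IgG libraries. These copies are nearly identical, so their separate values depend on how reads were placed.

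DUX4 copies formed another group. DUX4 is a homeobox transcription factor that is normally active in the early embryo and germ line and silent in most other cells, and its many pseudogene copies lie in macrosatellite repeats. The DUX4 family held 27 members, all 27 with peaks in the 4 MYT1L lists and 22 with peaks in both IgG lists. Median excess was 229, 340, 155 and 210 in the MYT1L libraries and 167 and 213 in the IgG libraries. These medians cover different members, 27 in each MYT1L library and 25 and 24 in IgG replicates 1 and 2. In the 22 members with a peak in all 6 lists, the median ratio of mean MYT1L to mean IgG excess was 1.34, above 1 in 21. All MYT1L values exceeded both IgG values in 5 of the 22, and both IgG values exceeded all MYT1L values in 0.

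A cluster of 15 members at chromosome 10 from 133664525 to 133763890 had a median gap of 3354.5 bp and a longest gap of 53114 bp, and 14 of the 15 had peaks in both IgG lists. Of the 15, 13 touched a DUX4L copy. The member with the highest mean MYT1L excess of the cluster (133687565 to 133690415) touched none; its excess was 908, 999.9, 899.9 and 872 in the MYT1L libraries and 881 and 857 in the IgG libraries. Among the copies DUX4L25 had pileups of 804, 401, 548 and 582 fragments in the MYT1L libraries and 169 and 94 in the IgG libraries. DUX4L23 had 256, 143, 165 and 170 and then 53 and 33. Pileups at DUX4L13 (816, 387, 567 and 581, then 145 and 87) were close to those at DUX4L25, while the other DUX4L copies of the cluster were nearer to DUX4L23.

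DUX4 itself, on chromosome 4, held 2 members, at 190177618 to 190178878 and 190179106 to 190180009. The former had an excess of 651, 703, 586 and 588 in MYT1L replicates 1 to 4 and of 580 and 536 in the IgG libraries, so every MYT1L value lay above both IgG values. The latter had an excess of 1595, 1717, 1548 and 1477 in MYT1L replicates 1 to 4 and of 1616 and 1587 in the IgG libraries. There the IgG values fell inside the MYT1L range.

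Among protein-coding genes, TTC34 held the most members, 6, all within chromosome 1 from 2652175 to 2759064. The first, at 2652175 to 2656000, had pileups of 228, 145, 222 and 201 fragments in the MYT1L libraries and 47 and 32 in the IgG libraries. The others ranged from 116 to 152 fragments in MYT1L replicate 1 and from 25 to 38 in IgG replicate 1. C1QTNF3, DUX4, HFM1, LMF1, LOC102724250, PTPRN2 and TMEM242 held 2 each, and 136 genes held the 141 members. The 2 members in LOC102724250 lay over MTCO1P12, a nuclear pseudogene of the mitochondrial gene for cytochrome c oxidase subunit I (chromosome 1, 630764 to 631355 and 631897 to 632277; named after its values were seen). The latter had 200, 130, 459 and 147 fragments in the MYT1L libraries, 72 in IgG replicate 1 and no peak in IgG replicate 2. Its excess was 169, 309, 437 and 164 in the MYT1L libraries and 219 in IgG replicate 1.

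Neuronal genes were taken as a list of 30, of which 2 held a member, beside 136 of all 20033 protein-coding genes. Gene length differs between genes and was not matched. PTPRN2, a receptor phosphatase-like protein of dense-core vesicles, held 2 members and CDH13, a cadherin without a cytoplasmic tail, held 1. In PTPRN2 the member at chromosome 7 from 158146975 to 158148955 had 82, 27, 28 and 50 fragments in the MYT1L libraries and 11 and 12 in the IgG libraries. Its excess was 69.2, 64.1, 26.6 and 55.9, then 33.4 and 63.1, so the groups overlapped. The CDH13 member (chromosome 16, 83657948 to 83659270) had 22, 12, 11 and 18 fragments, and 6 in IgG replicate 2 alone. Its excess was 18.6, 28.5, 10.5 and 20.1 in the MYT1L libraries, all below the 31.5 of IgG replicate 2. Duplicated gene families, a list of 399 of the 59675 gene-table entries, held 36 members in 34 genes. Of these 36, 27 were the DUX4 family members described above. The share of all entries that held a member was not counted, so this number has no background beside it. Both lists were drawn up with earlier results of these data known.

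A small group of 47 members (5.66%) overlapped 64 RefSeq promoter windows, 39 of them of protein-coding genes. Such windows were overlapped by 18% of IgG-free regions and 83.0% of the IgG-overlapping regions at gene ends. A member can overlap a window and still be away from gene ends because a window can lie at an alternative start inside a gene or belong to a noncoding gene. The 64 windows had a median GC content of 68.7% and a median of 31 CG dinucleotides, against 58.7% and 14 over all 34943 windows. A CpG observed-to-expected ratio over 0.6 was reached by 60 of the 64 (93.75%), by 96.5% of windows in the gene-end set, 91.2% in IgG-free regions and 48.7% of all windows. The letters AAGTT, on either strand, the core that MYT1-family zinc fingers are known to bind, occurred in 8 of 64 (12.5%), against 34.0% of all windows and 18.7% in both other sets. GC content was not matched between these sets, the 64 windows came from only 47 members, and the difference was not tested.

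Promoter members had low signal and rested on 1 control library. Only 2 of the 47 had peaks in both IgG lists, 10 in IgG replicate 1 alone and 35 (74.5%) in IgG replicate 2 alone. Their median excess was 16.0, 26.1, 15.2 and 44.7 in the MYT1L libraries, highest in replicate 4, and 24.3 and 36.8 in the IgG libraries, over the 12 and 37 with a peak there. MIR17HG, the host of the miR-17 to miR-92 cluster of growth-promoting microRNAs, had 16, 12, 14 and 44 fragments in MYT1L replicates 1 to 4 and 6 in IgG replicate 2. MACF1, a linker of actin and microtubules, had 22, 11, 17 and 45 fragments and 7 in IgG replicate 2. MIRLET7A1HG, the host of a let-7 microRNA, had 25, 8, 13 and 46 and 7 in IgG replicate 2. In all 3, MYT1L replicate 4 was the highest of the MYT1L libraries, also after division by its background. The 3 are examples outside the naming rules given below, and how many of the 47 had this pattern was not counted. These values are raw fragments, and the genome-wide background was lowest in the IgG libraries (0.329 and 0.190 fragments). They therefore do not place MYT1L above IgG.

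The exceptions at promoter windows were LOC105373480 and LINC01596, both noncoding. LOC105373480 had 128, 64, 120 and 289 fragments in the MYT1L libraries and 23 and 40 in the IgG libraries. LINC01596 had 173, 62, 105 and 135, and 37 and 32.

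Both IgG lists held 375 members (45.1%), IgG replicate 1 alone 298 (35.9%) and IgG replicate 2 alone 158 (19.0%). Of the 377 IgG-overlapping regions at gene ends, 17 were in both, 97 in IgG replicate 1 alone and 263 in IgG replicate 2 alone. Members in both IgG lists had a median excess of 206, 221, 174 and 177 in the MYT1L libraries and 179 and 184 in the IgG libraries. Those in IgG replicate 1 alone had 47.7, 49.9, 46.6 and 40.2 in the MYT1L libraries, and 51.6 in IgG replicate 1. Those in IgG replicate 2 alone had 25.7, 38.0, 19.0 and 38.6, and 44.7 in IgG replicate 2. Of the members in both lists, 72.3% lay over 100 kb from a gene end, 83.7% had another member within 100 kb and 96.8% were in all 4 MYT1L lists. Of those in IgG replicate 2 alone, 38.0% lay inside a protein-coding gene and 25.3% had another member within 100 kb.

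In the 363 members with a peak in all 6 lists, the MYT1L and IgG libraries had nearly the same excess. The median ratio of mean MYT1L to mean IgG excess was 0.983, and the 10th and 90th percentiles were 0.753 and 1.37. All 4 MYT1L values exceeded both IgG values in 22 members (6.06%), against 5.82% of all 378 IgG-overlapping regions with 6 peaks. Both IgG values exceeded all 4 MYT1L values in 49 (13.5%), against 13.0%. The values of the libraries overlapped in the remaining 292. The members make up nearly all of that background, so neither share stands apart from it. The Spearman correlation of mean MYT1L with mean IgG excess was 0.973 across these 363 regions, which share libraries and assembly positions. Averaged over pairs of libraries it was 0.949 between MYT1L and IgG, 0.956 between MYT1L libraries and 0.961 for the IgG pair.

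Within these 363 members with a peak in all 6 lists, the ratio of MYT1L to IgG excess varied between groups. The 8 such members in ribosomal RNA genes had a median ratio of 1.49 (range 1.34 to 1.85), above 1 in 8 of 8, and in 3 of them all MYT1L values exceeded both IgG values. For the 22 of the DUX4 family it was 1.34, above 1 in 21. The 26 of the 363 that lay inside protein-coding genes had 1.19, above 1 in 21. The 177 in the longest stretches free of protein-coding genes had 0.887, above 1 in 44, and in 43 both IgG values exceeded all MYT1L values. These groups were described and not tested, since their members share arrays.

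**Figure D3:**
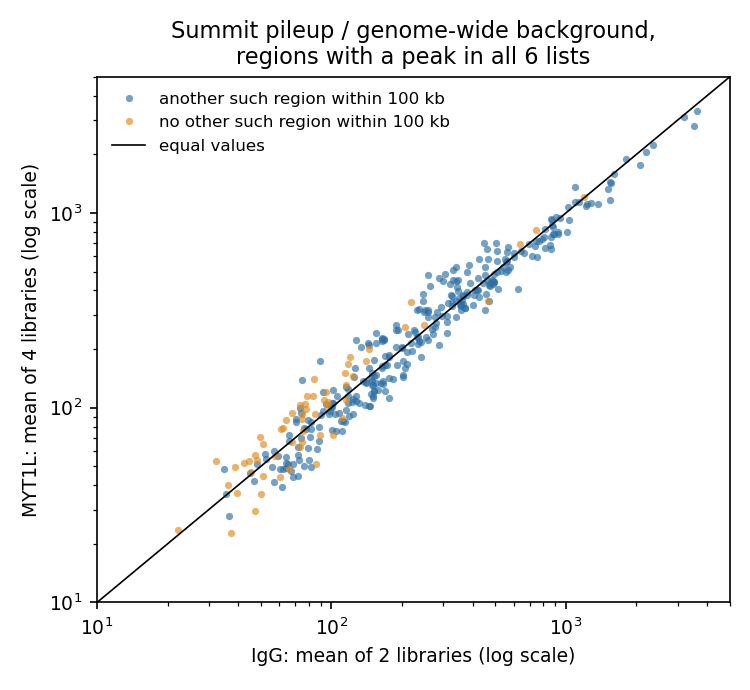
Mean excess over the 4 MYT1L libraries (vertical, log axis) against mean excess over the 2 IgG libraries (horizontal, log axis) for the 363 members with a peak in all 6 lists, each point a region coloured by whether another member lay within 100 kb, with the line of equal values. Points follow the line over the whole range, with a median ratio of 0.983.

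Recovery was tested in libraries that the choice of regions had not used. Each MYT1L library was held out in turn, regions were formed from the other 3 lists and kept where at least 2 of those 3 had a peak, and the share with a peak in the held-out list was counted. For regions chosen like the members it was 97.5, 79.6, 92.6 and 95.3% with replicates 1 to 4 held out (91.3 ± 8.03%, SD, n = 4). It was 69.1, 31.6, 46.9 and 69.7% for IgG-free regions away from gene ends and 95.1, 73.4, 88.9 and 99.5% for IgG-overlapping regions at gene ends. Against IgG-free regions recovery was higher by 36.9 ± 11.5 points, in 4 of 4 libraries (exact sign-flip permutation test, two-sided, n = 4, p = 0.13, the smallest possible; adjusted over 2 comparisons 0.25). Against gene ends it was higher by 2.04 ± 4.38 points, in 3 of 4 (exact permutation p = 0.5, adjusted p = 0.5). This design of 4 libraries cannot reach 0.05. An IgG peak needed a high excess, so the choice of regions favoured strong ones, and signal strength was not matched. In the MYT1L libraries median excess was 63.7 to 89.1 for the members and 13.3 to 23.7 for IgG-free regions. Higher recovery than in IgG-free regions cannot be told apart from that difference in strength. With a peak required in all 3 of the other lists, the differences in recovery were 20.6 points against IgG-free regions and 3.10 points against gene ends. The difference against gene ends was 9.24 points among peaks whose −log10 q reached 5, 7.11 points among the top 10000 peaks per list and 5.31 points without IgG replicate 1.

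The control libraries recovered each other's regions. A peak of IgG replicate 1 lay in 375 of 533 reproducible regions away from gene ends that held an IgG replicate 2 peak (70.4%), and in 298 of 4666 that held none (6.39%). A peak of IgG replicate 2 lay in 375 of 673 with an IgG replicate 1 peak (55.7%) and in 158 of 4526 without (3.49%). The mean difference was 58.1 ± 8.30 points (SD, n = 2), with no test at this number.

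**Figure D4:**
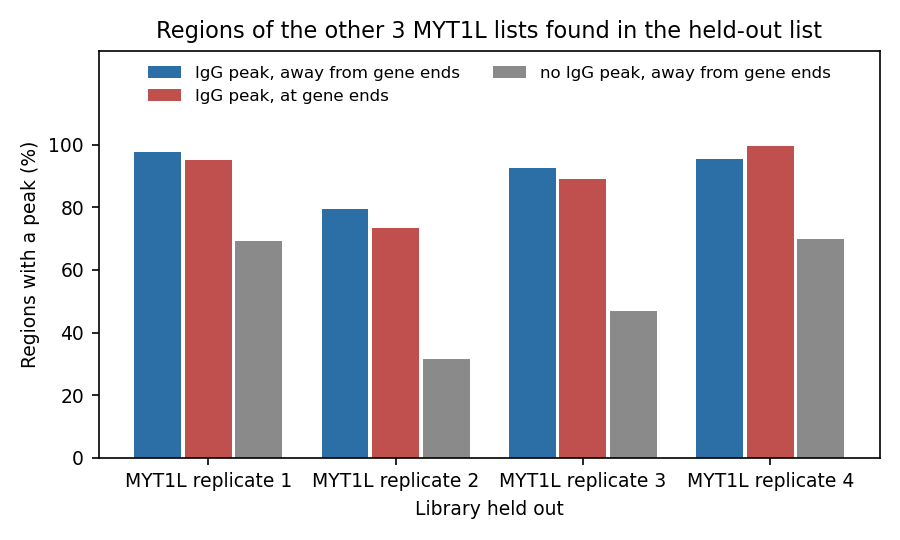
Percent of regions with a peak in the MYT1L library held out (vertical axis from 0), for each of the 4 libraries and the 3 kinds of region chosen from the other libraries. Regions chosen like the members were recovered in 79.6 to 97.5%, above the IgG-free regions away from gene ends in every library. Signal strength was not matched between the kinds of region.

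Summits of both antibodies fell close together in members. The median distance between the summits of a MYT1L and an IgG library in the same member was 23.4 ± 2.72 bp (SD over 8 pairs of libraries). It was 18.7 ± 1.97 bp between MYT1L libraries (6 pairs) and 17 bp for the IgG pair. Of the summits, 68.2% lay within 50 bp for MYT1L against IgG, 70.4% between MYT1L libraries and 75.5% for the IgG pair. In the IgG-overlapping regions at gene ends the median distances were 119, 105 and 134 bp, and 24.5, 29.0 and 23.5% lay within 50 bp. Pairs share libraries, so these distances were not tested.

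**Figure D5:**
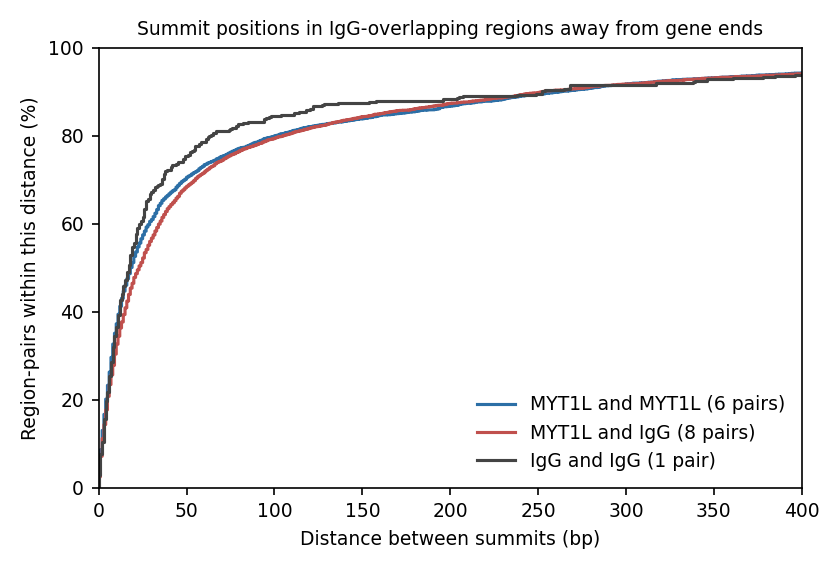
Percent of summit pairs in members (vertical axis) that lie within a given distance in bp (horizontal axis), pooled over the 8 MYT1L with IgG pairs, the 6 MYT1L pairs and the 1 IgG pair of libraries. The 3 curves rise together, with median distances per pair of libraries of 23.4, 18.7 and 17 bp.

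Close to the 1000 bp limit lay members in KANSL1L (chromosome 2, 210170739 to 210171700, 1060 bp from a gene end), ATP9B (chromosome 18, 79145257 to 79146691, 1156 bp) and PCDHA5 (chromosome 5, 140822833 to 140824001, 1220 bp). Just inside it, and so not members, lay regions by TAF11L10 (chromosome 5, 17598825 to 17599340, 997 bp), LOC102724652 (chromosome 21, 6565395 to 6566271, 906 bp) and GMPS (chromosome 3, 155870260 to 155871747, 830 bp).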

How the data were processed

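Per the submitters' processing notes, peaks were called with MACS2 on hg38; options, control library and read handling are not given in the sources used here. The deposited lists, 1 per library and without header, give each peak's score, fold enrichment (a ratio), −log10 p and −log10 q, with a lowest −log10 q of 2.00 to 2.01. All 4 values are those the authors' caller wrote for the peak. From the deposited fold and −log10 p, a whole-number pileup and a local background were solved with MACS formulas (within 0.0002) for 99.91 to 100% of peaks per list; pileups set midway fitted at most 0.70%. The lowest background shared by at least 20 peaks was taken as genome-wide. Total depth is unknown. The code was tested on simulated data. Lists held between 976 and 30086 peaks; those on other sequences were left out. Gene positions came from the RefSeq gene table of GRCh38.p14, with 20033 protein-coding genes. Intervals are Wilson. Software was numpy 2.4.6, scipy 1.17.1 and bedtools 2.31.1. Alternatives were the −log10 q minimum, the number of lists, the distance, top-ranked peaks, the ranking value, the cluster gap and leaving out libraries.

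Members and gene lists were chosen with earlier results of these data known. Named regions were the 10 highest by mean fold percentile over the MYT1L libraries and the 10 highest over the IgG libraries. Genes with most members and the regions nearest the 1000 bp limit were also named. Some others, such as genes at promoter windows, were named as examples outside these rules.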

Additional observations from a re-analysis of the deposited data

Results flagged for a closer look

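Of 24 groups of library values examined for a single library far from the rest, 5 had one, and chance gives about 1 in 20. MYT1L replicate 4 had the lowest median local background of members among the MYT1L libraries, 4.97 times the genome-wide one. Its difference between members and gene-end regions stood apart for the fold percentile, at -10.7 points, and for local background, at 0.66 on the log2 scale. At chromosome 17 from 25569075 to 25569423, MYT1L replicate 1 had an excess of 289.6 while the other MYT1L libraries lay close together below it. At chromosome 13 from 18211701 to 18212551, MYT1L replicate 3 had an excess of 757, below the other MYT1L libraries. Peaks on sequences other than the named chromosomes, which no comparison used, numbered at least 405 in each MYT1L list, above the 220 and 169 of the IgG lists. As a share of all peaks of a list the order is the other way, with 2.05 to 3.19% in the MYT1L lists and 18.4 and 14.5% in the IgG lists.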

How the results depend on the processing

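Of 160 values recomputed under alternatives, 138 stayed the same, 20 moved, 1 passed its threshold and 1 reversed. Among peaks whose −log10 q reached 5, the share of IgG-overlapping regions away from gene ends was 88.4%, inside genes 9.05%, over 100 kb away 73.3%, touching noncoding genes 15.0%, with another member within 100 kb 76.0%, and the summit distance was 16.6 bp. With all 4 lists required the share away was 71.5%, and with 5000 bp it was 65.6%. Among the top 10000 peaks per list, 13.5% were inside genes, 66.9% over 100 kb away and 69.5% clustered, with a summit distance of 20.3 bp. Clustering at 10 kb gave 42.1%. Ranked by −log10 q the percentile difference was 24.2 points. Leaving out 1 library at a time gave 533 to 887 members, a share away of 65.6 to 85.5%, 12 to 18% inside genes, 61.0 to 70.0% over 100 kb away, 58.5 to 73.7% clustered and a width difference from -68.7 to 10.4 bp, positive without MYT1L replicate 4. Without IgG replicate 1 the number of members was 533. Among peaks whose −log10 q reached 5 the fold percentile difference was 5.19 points. Measuring distance from the highest summit, chosen after seeing the data, moved none of the 11 results recomputed under it, which leave out held-out MYT1L detection. The cause was not tested. No paired analysis was possible because no test set MYT1L against IgG libraries by replicate number, while the sign-flip tests already compare both sets of regions within each library. The lowest excess of a member with a peak was higher in both IgG lists than in the MYT1L lists. The limit of detection itself was not measured.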
